A study of Drosophila melanogaster with 4 samples.

Results

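Drosomycin and the Bomanins are small secreted peptides that Drosophila melanogaster releases in defence against fungi and bacteria. Of 7 such genes looked for, namely Drs, Drsl5, BomS1, BomS2, BomS3, BomS5 and BomS6, 5 had a spot named for them and a value in both biological replicates, among 5754 genes that met the same condition. The genes were chosen by their immune function and by the large ratios some of them had shown in earlier work on these data, so their own values are described here without a test. No spot with only 1 gene symbol carried the name of BomS1 or BomS3 in the annotation used, and these genes were not analysed here. Each of the other 5 genes had 1 spot, with a value on all 4 arrays.

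Two-colour microarrays compared mutant whole embryos with rescued control embryos, both collected from 0 to 24 h of age. The mutants carried the null allele dsap18117, made by mobilising a P element, over the deficiency Df(3R)sbd45, which removes the gene, in a w1118 background. The control embryos had the same allele, deficiency and background plus a dsap18-HA transgene, so both groups lacked the normal gene copies and the control tests rescue rather than wild type. The label of the control channel on 1 array of replicate 1 places the transgene on chromosome 2 and those of the other 3 arrays on X. There were 2 biological replicates from different RNA extractions. Each replicate was measured on 2 arrays that shared the same amplified RNA with Cy3 and Cy5 swapped, so n is 2.

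Each value is the authors' log ratio of the channels. Its base is not given and was taken as log2, as limma writes it. The likely direction is mutant over control, because the series text calls the mutant the sample and the other channel the reference, but the direction is not stated and every sign below turns if it is the opposite. Across the 4321 genes with values on all 4 arrays, swapped arrays of a replicate correlated with r = 0.834 and 0.922 and arrays of different replicates with r between 0.673 and 0.740 (across genes, which are not independent replicates), so the authors were taken to have reversed the sign of the swapped arrays and none was changed here. Between 39.8% and 48.6% of the 16416 spots had a value on an array. The ratios of replicate 2 were 1.80 times as wide over genes as those of replicate 1. No spot with only 1 gene symbol was named for the targeted gene (Bin1, which encodes dSAP18), so the labels were not checked against it.

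In the fly, recognition of fungi and of many Gram-positive bacteria sets off a protease cascade that cleaves the ligand Spätzle. Spätzle binds the receptor Toll, the inhibitor Cactus is destroyed, and the NF-kappaB proteins Dif and Dorsal enter the nucleus of fat body cells and switch on Drs and the Bomanins. The parallel Imd pathway acts through the NF-kappaB protein Relish and drives other antibacterial peptides. Embryos also use Toll, Cactus and Dorsal to set up the dorsoventral axis, so several signalling genes of the pathway have an early maternal role. SAP18 binds the Sin3 corepressor, which removes acetyl groups from histones, and also takes part in RNA splicing.

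The antifungal peptide gene Drs (NCBI gene 38419, chromosome arm 3L) had the most negative ratio of all 4321 genes on every array. Its log2 ratio was -1.97 and -1.89 in replicate 1, and -4.44 and -3.94 in replicate 2, with the array that carried the mutant in Cy3 given first in each pair here and below. The mean was -3.06 ± 1.60 (SD, n = 2), which is an 8.34-fold difference. As fold sizes the replicates stood at 3.81-fold and 18.2-fold. All 4 arrays agreed in sign, but the replicate means lay 2.26 apart, the widest gap of the 4321 genes. In units of each array's own SD over genes, the replicate means were -6.68 and -8.25 and lay closer together than on the log2 scale.

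Drsl5 (NCBI gene 38409), a paralog of Drs on the same arm, had ratios of the opposite sign. They were 0.75 and 0.68 in replicate 1, and 1.40 and 1.29 in replicate 2. The mean was 1.03 ± 0.45 (SD, n = 2), a 2.04-fold difference, and the gene ranked 14th from the highest of 4321 by the replicate 1 mean and 8th by the replicate 2 mean. Its swapped arrays lay only 0.07 and 0.10 apart, and its replicate means were 2.47 and 2.65 in SD units. On the same arrays, Drs minus Drsl5 was -2.72 and -2.57 in replicate 1, and -5.83 and -5.23 in replicate 2. The difference averaged -4.09 ± 2.04 (SD, n = 2), and Drs lay below 0 and Drsl5 above 0 on every array.

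**Figure D1:**
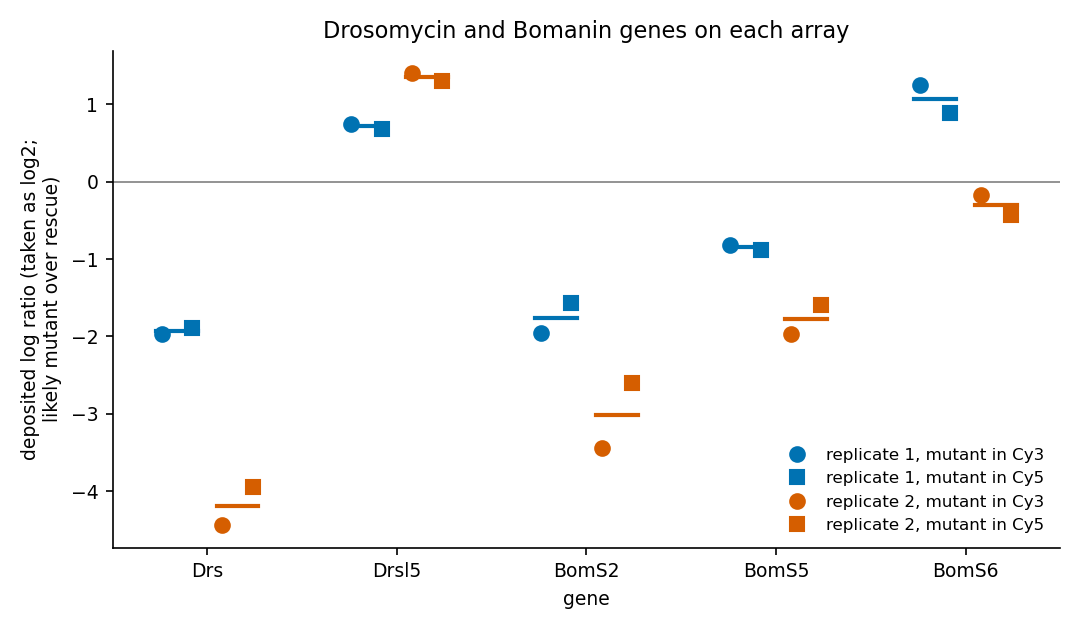
The y axis gives the deposited log ratio (taken as log2, likely mutant over rescued control) of each gene on each of the 4 arrays; circles are arrays with the mutant in Cy3, squares those with it in Cy5, blue is replicate 1, orange is replicate 2, and bars are replicate means. Drs, BomS2 and BomS5 lie below 0 on all 4 arrays, Drsl5 lies above 0 on all 4, and BomS6 lies above 0 in replicate 1 and below it in replicate 2.

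The short Bomanin gene BomS2 (NCBI gene 49802, arm 2R) followed Drs as the second most negative gene on all 4 arrays. Its log2 ratio was -1.96 and -1.57 in replicate 1, and -3.44 and -2.60 in replicate 2. The mean was -2.39 ± 0.89 (SD, n = 2), a 5.26-fold difference. Its dye swaps lay 0.39 and 0.84 apart, against a median over genes of 0.10 in replicate 1 and 0.13 in replicate 2, so its sign is firmer than its size. In SD units its replicate means were close, at -6.12 and -5.91.

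BomS5 (NCBI gene 50207), another short Bomanin, was negative as well but by less. Its ratios were -0.82 and -0.88 in replicate 1, and -1.97 and -1.59 in replicate 2. The mean was -1.31 ± 0.66 (SD, n = 2), a 2.49-fold difference, and BomS5 ranked 15th from the lowest by the replicate 1 mean and 9th by the replicate 2 mean. BomS5 lay above BomS2 on every array, as did every other gene with values on all 4 arrays except Drs. BomS5 minus BomS2 was 1.14 and 0.69 in replicate 1, and 1.47 and 1.01 in replicate 2, with a mean of 1.08 ± 0.23 (SD, n = 2).

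BomS6 (NCBI gene 50206) differed from the other short Bomanins measured. It was positive in replicate 1, at 1.24 and 0.88, and slightly negative in replicate 2, at -0.18 and -0.43. The replicate 1 mean of 1.06 was the second highest of 4321 genes, while the replicate 2 mean of -0.30 was the 1016th lowest. Its mean of 0.38 ± 0.96 (SD, n = 2) is therefore smaller than its SD, and no direction can be given for BomS6. The swapped arrays lay 0.36 and 0.25 apart, less than the 1.36 between the replicate means, so the replicates disagreed by more than the dye swaps did. Replicate means of opposite sign over 1 apart were found for 9 of 5754 genes. BomS6 lay above BomS2 on every array, as did every other gene with values on all 4 arrays except Drs. BomS6 minus BomS2 was 3.20 and 2.45 in replicate 1, and 3.26 and 2.17 in replicate 2, with a mean of 2.77 ± 0.08 (SD, n = 2). The swapped arrays put this difference 0.75 and 1.09 apart, far more than its replicate means differed. In units of each array's SD over genes it was 9.79 in replicate 1 and 5.29 in replicate 2, so its size was not alike on both scales.

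**Figure D2:**
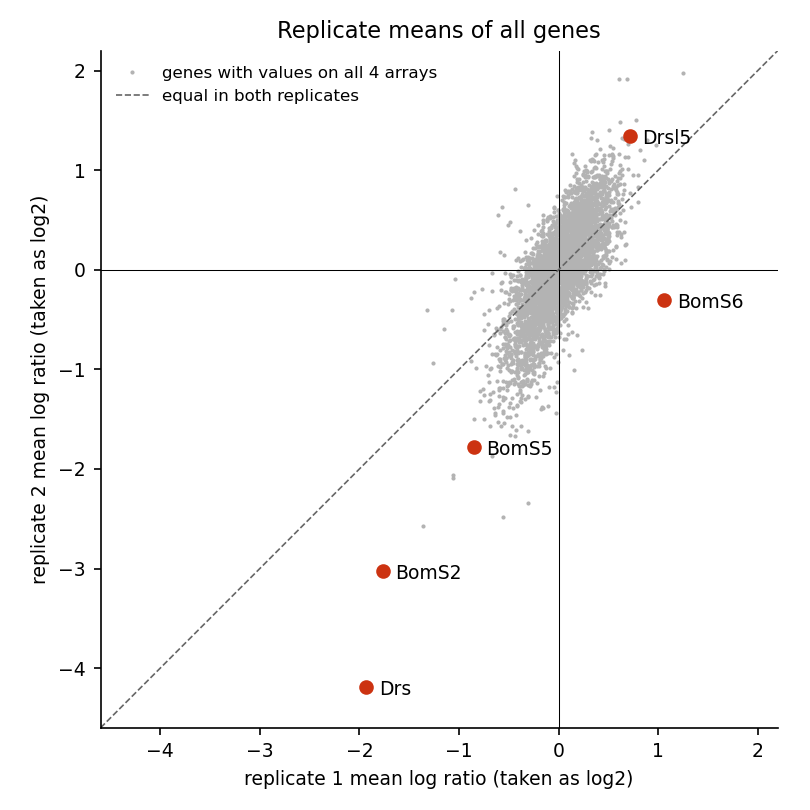
Each grey point is 1 of 4321 genes with values on all 4 arrays, at its mean log ratio (taken as log2) in replicate 1 on the x axis and in replicate 2 on the y axis; red points are the 5 immune peptide genes and the dashed line marks equal values. Drs (-1.93 and -4.19) and BomS2 (-1.77 and -3.02) lie outside the cloud at the lower left, and BomS6 (1.06 and -0.30) lies apart at the right.

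The Bomanin genes sit side by side on arm 2R, in the order BomT1, BomBc1, BomS1, BomS4, BomBc2, BomS2, BomS3, BomT2, BomS5 and BomS6 in the Release 6 gene table. BomS4 read -0.62 and -0.83 in replicate 1 and -1.55 on the single array of replicate 2 that had a value. Its mean was -1.14 ± 0.58 (SD, n = 2, limma adjusted p = 2.89e-07). BomT2, a Bomanin with a tail after the shared motif, read -0.73 and -0.46 in replicate 1 and -0.92 on the same single array of replicate 2, with a mean of -0.76 ± 0.23 (SD, n = 2, limma adjusted p = 2.88e-04). For both genes a dye effect does not cancel in replicate 2.

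BomBc2, which carries the Bomanin motif in 2 copies, had values in replicate 1 alone, at -1.14 and -0.59. BomBc3, a gene of arm 3R, also had values in replicate 1 alone, at -0.90 and -0.34. In replicate 1, then, 6 of 7 Bomanins with values were negative on both arrays and BomS6 was positive on both. In replicate 2 every value of the 5 Bomanins measured was below 0. For scale, the median of all 5754 genes tested was at 0.02 over both replicates. Neighbouring paralogs are not independent cases, and the share of all genes with such signs was not counted. BomS5 and BomS6 are direct neighbours, yet BomS6 minus BomS5 was 1.91 in replicate 1 and 1.48 in replicate 2. Probe sequences were not used here, so a signal shared between similar Bomanin transcripts cannot be told apart from the gene's own.

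The nearest measured genes on each side of the cluster showed no such ratios. Before the cluster, the nuclear protein gene sbb was at 0.13 ± 0.12 (SD, n = 2, limma adjusted p = 0.602). Between sbb and the cluster lie 9 annotated genes that lacked a value in at least 1 replicate. Directly after the cluster the chitinase-like gene Idgf5 was at -0.29 ± 0.07 (SD, n = 2, limma adjusted p = 0.179). Directly before the run of Drsl2, Drsl3, Drsl4 and Drsl5, the zinc transporter gene ZnT63C was at -0.03. Directly after Drsl5, the GPI anchor gene PIG-C was at 0.08, and neither of these neighbours passed. Of the genes next to Drs, the spectrin gene kst was at -0.71 ± 0.56 (SD, n = 2, limma adjusted p = 9.11e-04) and the RNA-binding protein gene Ythdc1 at 0.14. The other Drosomycin-like genes Drsl1, Drsl2, Drsl3, Drsl4 and Drsl6 each had a spot, but none had a value on any array.

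**Figure D3:**
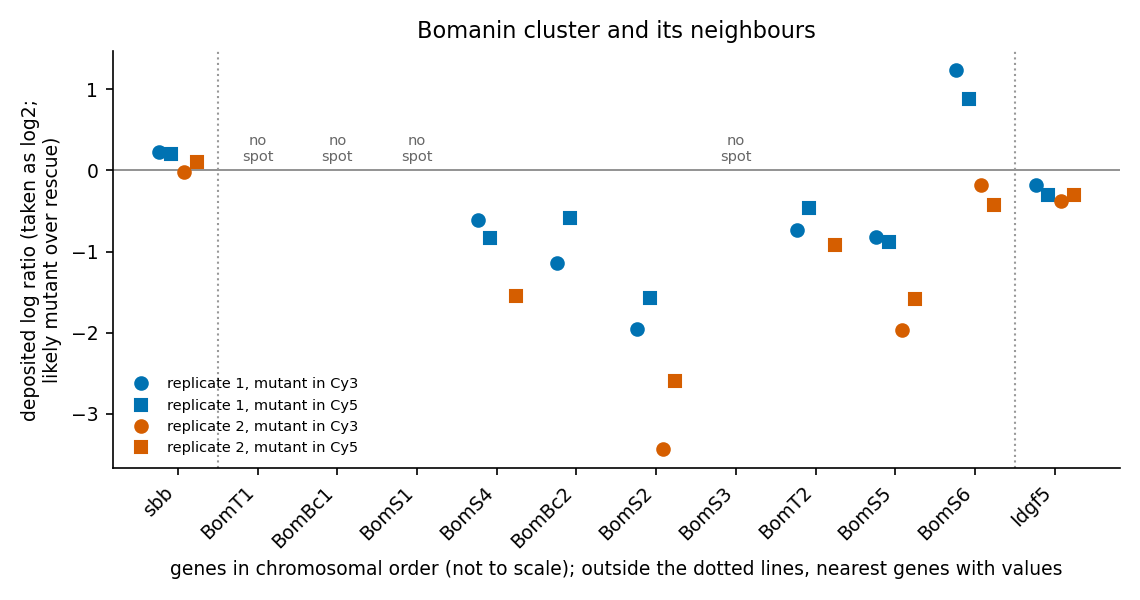
Deposited log ratios (y axis, taken as log2, likely mutant over rescued control) of the genes of the Bomanin cluster in their order along arm 2R (x axis, not to scale), with the nearest measured gene on each side outside the dotted lines; symbols and colours mark dye and replicate, and genes without a named spot are marked. BomS2 reaches -3.44, BomS6 spans 1.24 to -0.43, and the flanking genes sbb and Idgf5 stay between 0.23 and -0.38.

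Over all 5754 genes, limma called 23.0% at an adjusted p under 0.05, 11.7% below 0 and 11.3% above it, and the median gene was at 0.02. With 2 replicates the test leans on a variance shared among genes, and a test of each gene on its own passed none (459 genes at an unadjusted p under 0.05, against 2019 with limma). Of 30 measured genes in lists of the other Bomanins, other immune peptides and the Toll and Imd pathways, 12 passed (40.0%), 8 below 0 and 4 above it. These lists were chosen with earlier results of these data known, and the Bomanins BomS4 and BomT2 are among the 12. Among genes with values on all 4 arrays, 7 of 22 list genes passed (31.8%), against 21.6% of all 4321. With each replicate represented by its Cy3-mutant array, 7 of 23 passed (30.4%), against 18.4% of all 5154. Both settings tested fewer list genes than 30.

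Effector genes outside the Drosomycin and Bomanin families were mostly without values. Of 19 other antimicrobial peptide genes in the list, 8 had a named spot and only BaraC had values in both replicates. BaraC was at -0.01 ± 0.19 (SD, n = 2, limma adjusted p = 0.97). It read 0.24 and 0.02 in replicate 1 and -0.15 on the single array of replicate 2 that had a value. A dye effect therefore does not cancel in replicate 2. The spots for AttB, AttD, DptB, Def and Mtk had no value on any array, so the Imd-dependent peptides could not be compared with Drs.

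Of 3 measured genes for other secreted immune factors, 2 passed, both negative, against 11.7% of all genes tested. The clotting factor gene fon read -0.52 and -0.46 in replicate 1, and -1.69 and -1.63 in replicate 2, with a mean of -1.07 ± 0.83 (SD, n = 2, limma adjusted p = 2.51e-06). The immune-induced peptide gene IM33 was near 0 in replicate 1, at -0.16 and 0.10, and strongly negative in replicate 2, at -1.74 and -1.14. Its mean of -0.73 ± 1.00 (SD, n = 2, limma adjusted p = 0.00139) thus rests on replicate 2, since replicate 1 alone averaged -0.03, and IM33 did not pass with the arrays fitted singly and the replicate as a random block (limma adjusted p = 0.0657). The serpin gene nec, whose product restrains the Toll cascade, was at -0.24 and did not pass.

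Genes that act upstream in the Toll pathway lay on both sides of 0. Of 15 measured, 3 passed below 0 and 3 above it, against 11.7% and 11.3% of all genes tested. The Toll list median was 0.09, made of 0.01 for replicate 1 and 0.10 for replicate 2. On the negative side stood 2 proteases of the immune cascade. SPE, which cleaves Spätzle, was at -0.65 ± 0.13 (SD, n = 2, limma adjusted p = 0.00152), and Hayan at -0.64 ± 0.28 (SD, n = 2, limma adjusted p = 0.00225). The third was pip, an enzyme gene that acts in the ovary to set up dorsoventral polarity, at -0.42 ± 0.31 (SD, n = 2, limma adjusted p = 0.0438), with 5 of its 6 spots that had values below 0.

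The receptor gene Tl, the kinase gene pll and the inhibitor gene cact made up the positive side. Tl read 0.88 and 0.47 in replicate 1, and 0.61 and -0.09 in replicate 2, so its sign was not the same on all 4 arrays (mean 0.47 ± 0.29, SD, n = 2, limma adjusted p = 0.0251). The ratio of pll was 0.42 ± 0.11 (SD, n = 2, limma adjusted p = 0.0449) and that of cact 0.42 ± 0.04 (SD, n = 2, limma adjusted p = 0.0414). These 3 genes and pip lay near the threshold, and each lost its call in 2 of the settings tried beside the test without shared variance. For pip these were the genes with values on all 4 arrays (limma adjusted p = 0.0594) and the Cy3-mutant arrays (limma adjusted p = 0.0832). SPE and Hayan kept their calls in every setting except the test without shared variance. The ligand gene spz was at 0.09 and the adaptor genes tub and Myd88 at 0.14 and 0.18, none of which passed. The spots of dl and Dif, the 2 NF-kappaB genes that act on Drs and the Bomanins, had no value on any array.

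In the Imd pathway 2 of 9 measured genes passed, 1 in each direction, a share near the 23.0% of all genes tested. The Imd list median was 0.03. Rel, the Relish gene, read -0.22 and -0.30 in replicate 1, and -0.74 and -0.86 in replicate 2, a mean of -0.53 ± 0.38 (SD, n = 2, limma adjusted p = 0.0118). Uev1A, a ubiquitin-conjugating enzyme variant, was at 0.56 ± 0.50 (SD, n = 2, limma adjusted p = 0.00867). Uev1A averaged 0.21 in replicate 1 and 0.91 in replicate 2, so its mean rests mainly on replicate 2. The call for Rel was lost when only the Cy3-mutant arrays were used (limma adjusted p = 0.0584).

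**Figure D4:**
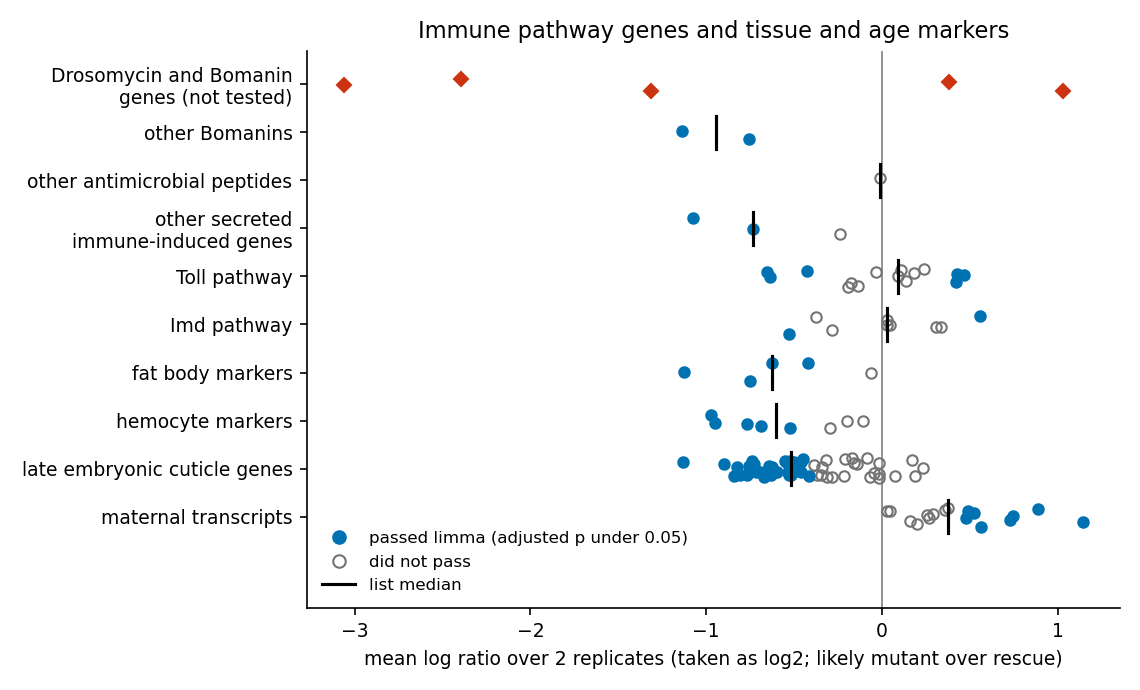
Each point is the mean log ratio of 1 gene over 2 replicates (x axis, taken as log2, likely mutant over rescued control), by gene list (y axis); filled circles passed limma at an adjusted p under 0.05, open circles did not, vertical bars are list medians, and red diamonds are the 5 Drosomycin and Bomanin genes, which were not tested. Toll and Imd pathway genes lie on both sides of 0 with medians of 0.09 and 0.03, while fat body and hemocyte markers lie below 0 with medians of -0.62 and -0.60.

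Some markers of the tissues that make immune peptides, and of embryo age, also passed the test. In whole embryos fewer cells of a type and less RNA per cell cannot be told apart. The test called 4 of 5 measured fat body markers, each below 0, against 11.7% of all genes tested. The fat body list median was -0.62, with -0.32 for replicate 1 and -0.92 for replicate 2. The fat body markers called were the lipoprotein gene apolpp (-1.13 ± 0.53), the lipid transfer gene Apoltp (-0.75), the GATA factor gene srp (-0.62) and the fatty acid synthase gene FASN1 (-0.42). FASN1 lost its call among genes with values on all 4 arrays (limma adjusted p = 0.0612) and on the Cy5-mutant arrays (limma adjusted p = 0.129). The storage protein gene Lsp2 was at -0.07 and did not pass. The lowest of these, apolpp, read -0.80 and -0.70 in replicate 1, and -1.62 and -1.39 in replicate 2. Drs and BomS2 were the lowest and second lowest of 4321 genes on every array. They therefore lay below apolpp as below every other gene, and that difference was not tested.

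The test called 5 of 8 measured hemocyte markers, each below 0, against 11.7% of all genes tested. The hemocyte list median was -0.60, with -0.23 for replicate 1 and -0.98 for replicate 2. The prophenoloxidase genes PPO2 (-0.97 ± 0.53) and PPO1 (-0.95) were the lowest. They were followed by the collagen genes Col4a1 (-0.77 ± 0.86) and vkg (-0.69 ± 0.60) and by Nplp2 (-0.52 ± 0.45, SD, n = 2). PPO1 had a value on only 1 array of replicate 1, so a dye effect does not cancel there. Col4a1 averaged only -0.17 in replicate 1 and -1.37 in replicate 2, and vkg -0.26 and -1.11, so both means rest mainly on replicate 2. Nplp2 lost its call on the Cy3-mutant arrays (limma adjusted p = 0.103). The hemocyte genes Hml, NimC1 and eater had spots without values. Among 57 cuticle protein genes, which mark late embryos, 35 were called, each below 0, against 11.7% of all genes tested. The cuticle list median was -0.52, with -0.20 for replicate 1 and -0.78 for replicate 2. Among 17 maternal transcripts, which mark early embryos, 8 were called, each above 0, against 11.3% of all genes tested. The maternal list median was 0.37, with 0.37 for replicate 1 and 0.50 for replicate 2. The part of tissue makeup and of embryo age in the ratios of Drs and the Bomanins was not tested.

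By Euclidean distance between the 4 log2 ratios, the nearest to Drs outside the 5 immune peptide genes was CG2233 at a distance of 2.44, then CG9759 (3.10) and CG18180 (3.21). CG2233 was also nearest to BomS2, at 1.02, with ratios of -1.26 and -1.46 in replicate 1, and -2.74 and -2.40 in replicate 2. CG18180 (1.68) and CG16713 (1.83) came next. Such distances are large for any gene at the edge of the range, so they are not compared between genes. Nearest to Drsl5 were the securin gene pim (0.14), the brummer-like lipase gene dob (0.23) and the pseudouridine synthase gene Pus10 (0.23). The ratios of pim were 0.77 and 0.55 in replicate 1, and 1.40 and 1.23 in replicate 2.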

How the data were processed

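The authors deposited log ratios of the 2 channels for each spot and array, taken here as log2. Per the submitters' processing notes limma was used. Not given in the sources used here are its version, the background correction, the normalization, the log base and the rule that left spots empty. Spots with 1 gene symbol in the platform annotation (13164 of 16416) were renamed through the Release 6 RefSeq gene table. Of these, 12533 were matched by gene ID and 120 by accession, and 511 kept their symbol. The 101 spots with several symbols and the 3151 with none were left out. The array's genome build is not given, so no coordinates are printed. Spots were averaged per gene and array, then the 2 swapped arrays per replicate. Genes with a value on at least 1 array of each replicate entered a moderated test of the 2 replicate means against 0 (limma 3.58.1, R 4.3.3, two-sided, Benjamini-Hochberg over 5754 genes). The code was also run on simulated data with equal spread in both replicates and independent genes. The deposited ratios were wider in replicate 2, so that run cannot show that the calls hold here. Each gene has 1 residual degree of freedom and 80.0 prior ones. Spot brightness was not used here. Precision rests on the 2 biological replicates and the variance shared among genes, and replicate means were not weighted by their number of arrays. The 7 genes and the gene lists were chosen with earlier results of these data known. Named from each list were up to 6 genes past the test, or the extremes where none passed. The cuticle and maternal lists are given by counts and medians alone. Also named were the nearest measured chromosomal neighbours and the 3 genes nearest in ratio to Drs, BomS2 and Drsl5. Any other gene was picked with its values in view. The list names BaraA and nos had no match. Alternatives changed the genes tested, centring, scale, dye, spot average, replicates, block and moderation.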

Additional observations from a re-analysis of the deposited data

How the results depend on the processing

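The mean ratios of Drs, Drsl5, BomS2 and BomS5 kept their sign in every setting tried. Their sizes depended on the replicate, and Drs ran from -4.19 without replicate 1 to -1.93 without replicate 2. For BomS6 the value ran from -0.30 without replicate 1 to 1.06 without replicate 2. BomS5 minus BomS2 was 1.31 on the arrays with the mutant in Cy3 and 0.85 on those with it in Cy5. BomS6 minus BomS2 was 3.23 and 2.31 on the same pairs of arrays, and 3.01 with arrays scaled to one SD. The count of genes past limma was 1321, against 1987 with arrays scaled to one SD and 0 without moderation (459 at an unadjusted p under 0.05). Immune list genes past the test numbered 12 of 30, against 7 of 22 with values on all 4 arrays. They numbered 7 of 23 with the mutant in Cy3 alone and 0 without moderation. In the same order, 23.0%, 21.6%, 18.4% and 0.0% of all genes tested passed. BaraC, which did not pass, turned to 0.025 with scaled arrays and to 0.0035 with a random block. Tl lost its call on the Cy5 arrays (limma adjusted p = 0.409) and with the block (0.128). A replicate left out gives no test, and the dye term with a random block was not run, because 4 arrays are too few to estimate the correlation beside it.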
